A study of Mus musculus with 8 samples.

Results

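Respiratory complex I, NADH:ubiquinone oxidoreductase, was followed through the 51 nuclear genes that encode its subunits and assembly factors in mouse muscle stem cells (MuSCs). The genes were taken by name: every protein-coding gene of the Ensembl 96 mouse annotation whose symbol begins with Nduf, apart from Ndufa4, which is now counted with complex IV, together with Timmdc1, Ecsit, Acad9, Nubpl, Foxred1 and Tmem126b. They were 51 of 22028 protein-coding genes with transcripts in the files. The rule uses symbols alone, but it was set with earlier results of these data known. Of the 51, 36 encode subunits, 14 encode assembly factors, and Ndufa4l2 encodes a paralogue of Ndufa4 that is not part of the enzyme.

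The samples came from young Pax7-nTnG males, 5 to 6 months old, which carry Pax7CreERT2 and a Rosa26 reporter that changes a nuclear tdTomato to a nuclear GFP. Tamoxifen in the final week labelled the cells in which the Pax7 promoter had driven Cre, so the sort for nuclear GFP rests on Cre activity in that week. For 8 weeks 3 mice received a vitamin A-free (VA-free) diet and 2 mice received control chow, and all 5 carried the same alleles and received tamoxifen. MuSCs of gastrocnemius and quadriceps were sorted into Trizol, RNA of a mouse was split at the spin column into technical replicates A and B, and 8 libraries were analysed here (VA-free 1B, 2A, 3A and 3B, control 1A, 1B, 2A and 2B).

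Complex I takes electrons from NADH, passes them through a flavin and a chain of iron-sulfur clusters to ubiquinone, and pumps protons across the inner mitochondrial membrane. Its N module oxidizes NADH, its Q module reduces ubiquinone, and its proximal and distal membrane arms hold the proton channels. A small set of core subunits, shared with bacteria, carries out the catalysis, partly encoded by mitochondrial DNA, and the remaining accessory subunits surround it. Assembly factors join the modules and leave before the enzyme is finished. The mitochondrial content of quiescent MuSCs is known to increase when they activate.

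Between 44831232 and 88650428 estimated counts were given per library. Levels below are CPM values after TMM normalization, counts scaled to a common library size, and a log2 fold change is VA-free over control with the libraries of a mouse added together. The technical replicates of control mouse 2 stood apart. Over all genes their counts differed by a chi-square of 598 per degree of freedom, more than control 2A from 1A and 1B of the other control mouse (454 and 546) or 2B from them (119 and 84.2), whereas the 2 libraries of control mouse 1 differed by 51.8 and those of VA-free mouse 3 by 10.6. Whether 2A and 2B came from the same mouse, as labelled, was not tested, and the values of control mouse 2 and the n of 2 control mice rest on that label. MuSC markers stood at a summed 5960 to 6690 CPM in the VA-free mice and 3270 to 3370 CPM in the control mice, and 9 of 10 were higher on the VA-free diet. Markers of other cells moved with the diet too. All 8 endothelial markers were lower on the VA-free diet (sum 216 to 277 against 1200 to 2240 CPM), as were 5 of 5 Schwann markers (32.0 to 38.9 against 378 to 590 CPM), 4 of 5 tenocyte markers (38.4 to 60.9 against 705 to 1080 CPM) and 4 of 5 erythroid markers (29.5 to 244 against 1570 to 1630 CPM). Of 12 myofiber markers 6 were lower and none was called higher (402 to 523 against 573 to 651 CPM). Of 6 fibro-adipogenic markers 4 were lower and Col3a1 was higher, which raised that sum (11600 to 12400 against 6280 to 8050 CPM), of 6 pericyte and smooth muscle markers 3 were lower and Notch3 was higher (1620 to 1820 against 2430 to 2950 CPM), and of 7 macrophage markers 2 were lower (24.4 to 138 against 191 to 718 CPM). No marker of any list was at 0 in a mouse. The part of these other cells in the results below was not tested, and in bulk RNA fewer cells of a type and less RNA per cell cannot be told apart.

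The nuclear subunits of complex I were lower on the VA-free diet almost throughout. Of the 36, 34 fell, none rose, and Ndufv1 and Ndufs1 did not pass the threshold (edgeR's quasi-likelihood test, Benjamini-Hochberg adjusted p under 0.05 over 17997 genes tested). Over all genes tested, 41.4% were called in either direction, 22.5% as lower and 18.9% as higher. The subunits had a median log2 fold change of -1.33, a 2.52-fold lower level, with a range from -2.02 to 0.07, whereas the median over all genes tested was 0.00. In 35 of 36 subunits every VA-free mouse lay below every control mouse, and the same 35 of 36 held over the single libraries. Among all genes tested 32.2% separated the mice in this way. For the libraries, some of which share a mouse, the share over all genes was not counted, so nothing is read from that count. The summed subunit level was 2240 to 2260 CPM in the 3 VA-free mice and 5060 to 5320 CPM in the 2 control mice. No member of the 51 was called higher by edgeR, by DESeq2 or by limma-voom, and at an unadjusted p under 0.05 edgeR still called 0 higher. Every member passed the filter on low counts, and the lowest count of any subunit in any library was 647.

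**Figure D1:**
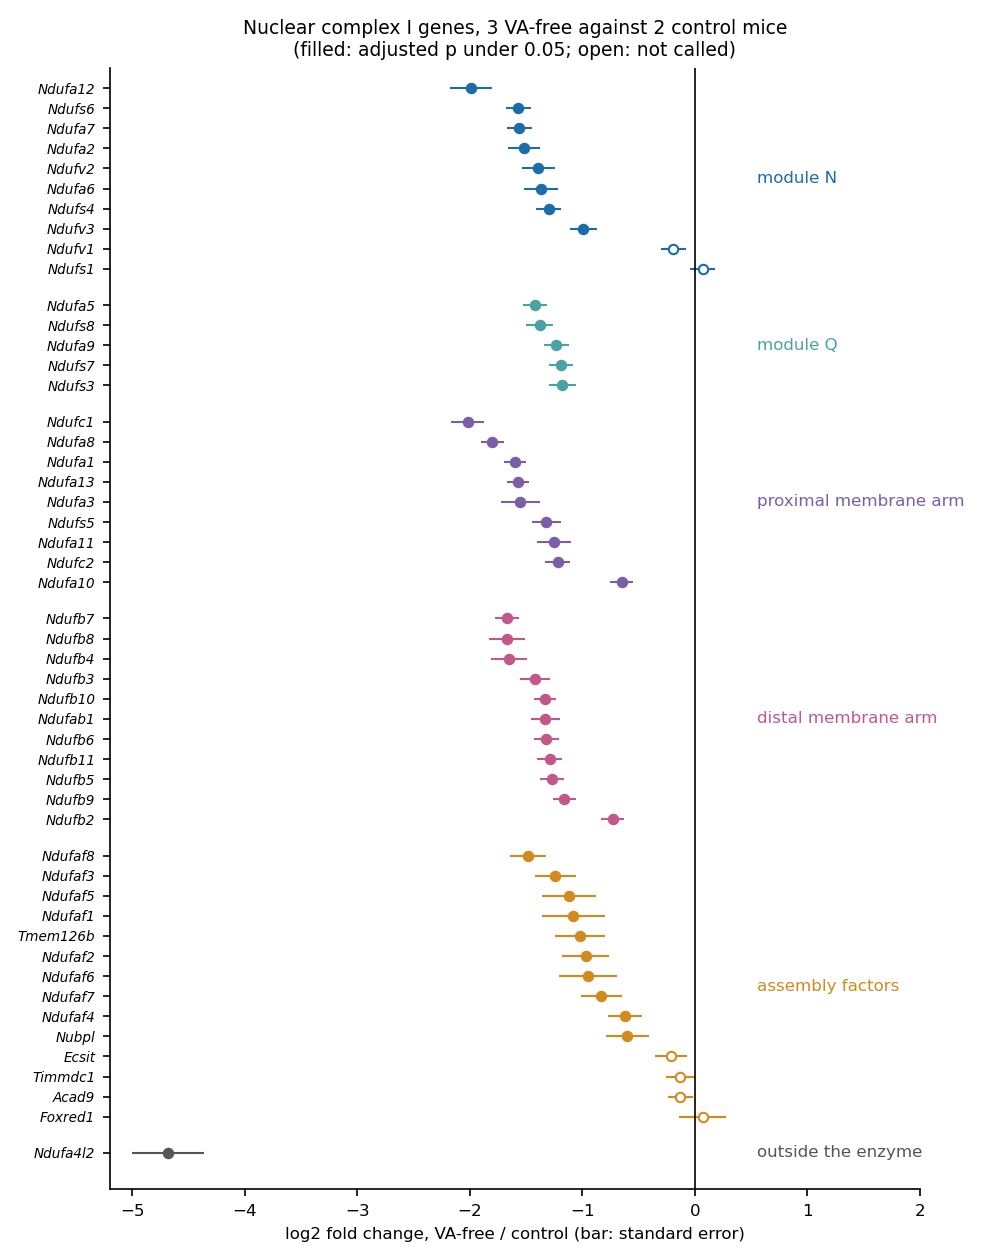
Log2 fold change (x axis, VA-free over control, bars are standard errors) of 50 of the 51 genes, grouped by module and sorted within it, for 3 VA-free and 2 control mice. Filled points passed the threshold: 33 of 35 subunits shown and 10 of 14 assembly factors lie to the left of 0 as filled points, Ndufv1, Ndufs1 and 4 assembly factors are open, and Ndufa4l2 lies farthest left.

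The fall ran through all 4 structural modules. Of 10 N module genes 8 were lower (median log2 fold change -1.38), of 6 Q module genes all 6 (median -1.21), of 9 genes of the proximal membrane arm all 9 (median -1.55) and of 11 genes of the distal membrane arm all 11 (median -1.33). By role the accessory subunits were called lower in 29 of 29 cases, with a median of -1.37 and a range from -2.02 to -0.65, and the core subunits in 5 of 7 cases, with a median of -1.18. Among all genes tested 22.5% were lower. Whether modules or roles differ from each other was not tested.

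Start regions of 4 members are shown, members that fell and, in Ndufv1, a subunit that was not called. Each run covers 150 bases before and 30 bases after the RefSeq start of the gene (GRCm38.p6), 5′ to 3′ on the gene's strand. Ndufa8 is at chr2:36049309-36049488 (minus strand), Ndufaf8 at chr11:120098784-120098963 (plus strand), Ndufc1 at chr3:51408926-51409105 (minus strand) and Ndufv1 at chr19:4012726-4012905 (minus strand). Capitals mark matches to letters of the NRF1, GABP or ETS, YY1 and CCAAT box motifs searched. Ndufa8 and Ndufaf8 fell and hold matches, Ndufc1, among the subunits with the larger falls, holds none, and Ndufv1 was not called and holds none. Ecsit, Foxred1 and Timmdc1, not shown, were not called either and hold matches in this window.
Ndufa8: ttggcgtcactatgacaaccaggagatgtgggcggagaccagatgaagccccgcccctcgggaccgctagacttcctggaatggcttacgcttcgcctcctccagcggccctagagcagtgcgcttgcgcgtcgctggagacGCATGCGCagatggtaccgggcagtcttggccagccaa
Ndufaf8: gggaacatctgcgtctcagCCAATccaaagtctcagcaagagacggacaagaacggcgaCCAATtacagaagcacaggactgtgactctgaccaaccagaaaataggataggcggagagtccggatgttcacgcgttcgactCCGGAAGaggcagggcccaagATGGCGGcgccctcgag
Ndufc1: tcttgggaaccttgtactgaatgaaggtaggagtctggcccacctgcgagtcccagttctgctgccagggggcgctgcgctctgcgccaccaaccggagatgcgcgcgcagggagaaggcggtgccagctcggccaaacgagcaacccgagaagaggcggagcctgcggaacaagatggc
Ndufv1: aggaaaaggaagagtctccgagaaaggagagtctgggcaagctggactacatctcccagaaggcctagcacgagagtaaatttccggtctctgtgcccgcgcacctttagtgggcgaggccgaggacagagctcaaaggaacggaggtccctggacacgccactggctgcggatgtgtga

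The RefSeq table held promoters, 250 bases before to 50 after the start, for 44 of the 51 genes. The YY1 letters ATGGCGG, searched on both strands as were the other motifs, were in 11 of 44 members (25%) and in 7.79% of 12562 genes tested that had a promoter. These letters begin with a start codon, and some matches lay just after the start site, as in Ndufaf8. The NRF1 letters GCATGCGC were in 5 members (11.4%) against 5.09% of genes tested. The GABP or ETS letters CCGGAAG were in 8 members (18.2%, against 16.8%) and the CCAAT box CCAAT in 18 (40.9%, against 42.5%). Over all 27025 genes of the table the shares were 4.69% for YY1, 3.05% for NRF1, 9.93% for GABP or ETS and 41.1% for the CCAAT box. A match of letters is a description of the sequence, not a binding site.

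The N module held both uncalled subunits and, in Ndufa12, a fall whose size moved with the libraries of control mouse 2. Ndufa12 (ENSMUSG00000020022, chr10:94198720-94221443 in GRCm38), an accessory subunit at the joint of the N and Q modules, was at 51.2, 50.3 and 49.8 CPM in the VA-free mice and at 154 and 246 CPM in the control mice. The VA-free mice lay close together, and the 2 control mice differed from each other. The log2 fold change of Ndufa12 was -1.99 ± 0.19 (SE, adjusted p = 0.0005). Library control 2A was at 434 CPM and control 2B at 94.7 CPM. Without 2A the log2 fold change of Ndufa12 was -1.30, where those of Ndufs6 (-1.34) and Ndufa2 (-1.44) were larger in size. Without 2B that of Ndufa12 was -2.57. Other subunits moved likewise, such as Ndufv2 (-0.95 without 2A, -1.83 without 2B) and Ndufb8 (-1.13 and -2.18). Ndufv2 (chr17:66078638-66101559), which holds an iron-sulfur cluster beside the flavin, was at 78.5, 75.5 and 76.4 CPM against 169 and 233 CPM, a log2 fold change of -1.39 ± 0.15 (adjusted p = 0.000711).

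Ndufv1 and Ndufs1, the other core subunits of the N module, did not follow. Ndufv1 (chr19:4007384-4012806), which binds NADH and the flavin, was at 154, 160 and 169 CPM in the VA-free mice and 189 and 178 CPM in the control mice. The diets did not overlap, but the log2 fold change was -0.19 ± 0.11 (adjusted p = 0.211). Ndufs1 (chr1:63143596-63176833), the largest core subunit, which carries most of the iron-sulfur clusters of the module, was at 147, 145 and 146 CPM against 130 and 148 CPM. Here the diets overlapped, and the log2 fold change was 0.07 ± 0.11 (adjusted p = 0.645).

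TPM, which divides by transcript length, allows levels to be compared between genes. In the control mice the mean TPM was 300 for Ndufv2, 170 for Ndufv1 and 77.5 for Ndufs1, and in the VA-free mice it was 155, 209 and 111 in that order. Ndufv2 transcripts were therefore the most abundant of the 3 in the control mice, and Ndufv1 transcripts in the VA-free mice. Across the 36 subunits the control TPM ran from 77.5 for Ndufs1 to 767 for Ndufb8, and the VA-free TPM from 39.9 for Ndufb4 to 326 for Ndufb8. On the log2(TPM + 1) scale the median of all genes tested itself moved by 0.19. On that scale 32 of 36 subunits were lower with a median of -0.92, where 14.7% of all genes tested were lower, the fall of Ndufa10 was no longer called, and Ndufv1, Ndufs1 and the assembly factor Foxred1 were called higher.

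In the Q module all 6 genes fell. Ndufs8 (chr19:3908863-3912774), whose iron-sulfur clusters pass electrons towards ubiquinone, was at 91.1, 102 and 84.0 CPM in the VA-free mice and at 240 and 238 CPM in the control mice, and its log2 fold change was -1.38 ± 0.12 (adjusted p = 0.000395). Ndufs7 (chr10:80249121-80256794), which carries the last cluster before ubiquinone, was at 89.5, 92.2 and 90.4 CPM against 221 and 192 CPM, with a log2 fold change of -1.19 ± 0.11 (adjusted p = 0.000458). Both stood clear of the spread between mice. Ndufs3 (chr2:90894634-90904827), a structural core subunit, was at 32.9, 30 and 28.1 CPM against 65.8 and 71.4 CPM, a log2 fold change of -1.18 ± 0.12 (adjusted p = 0.000598). The accessory subunit Ndufa5 had the lowest log2 fold change of this module in the main fit, -1.42 ± 0.11 (adjusted p = 0.000288). It was at 32.9, 31.4 and 32.9 CPM against 90.5 and 82.5 CPM. Ndufa5 and Ndufs8 lay within their errors of each other. Their order turned without VA-free mouse 2 (-1.39 for Ndufa5 and -1.45 for Ndufs8) and without control mouse 1 (-1.35 and -1.37).

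Both membrane arms fell, in 20 of 20 genes. Ndufc1 (chr3:51404677-51408988), a small subunit of the proximal arm, was at 20.8, 17.7 and 21.5 CPM in the VA-free mice and 73.0 and 89.1 CPM in the control mice, 4.05-fold lower (log2 fold change -2.02 ± 0.15, adjusted p = 0.00026). Its fall and that of Ndufa12 lay within their errors of each other, and their order turned without control mouse 1 (-2.16 for Ndufc1 and -2.29 for Ndufa12). In the distal arm Ndufb8 (chr19:44548572-44555440) was at 114, 117 and 116 CPM against 306 and 429 CPM, with a log2 fold change of -1.67 ± 0.16 (adjusted p = 0.000451). In both genes the VA-free mice lay far below the control mice.

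In the main fit the smallest falls of the arms were those of Ndufa10 and Ndufb2. Ndufa10 (chr1:92439010-92473860), a subunit with the fold of a nucleoside kinase, was at 103, 101 and 97.2 CPM against 158 and 157 CPM, with a log2 fold change of -0.65 ± 0.10 (adjusted p = 0.00266). Ndufb2 (chr6:39592574-39603382) was at 53.7, 52.1 and 53.9 CPM against 89.2 and 86.8 CPM, with a log2 fold change of -0.73 ± 0.10 (adjusted p = 0.00168). Mice of a diet lay within a few CPM of each other in both genes, and the diets did not overlap. The rank of Ndufb2 moved with the handling of length. With an offset for effective transcript length in each mouse, Ndufb2 was at -1.17 and Ndufb9, also of the distal arm, at -1.12. On the log2(TPM + 1) scale they were at -0.75 and -0.71. With the trend of each mouse with length removed they were at -0.00 and -0.43.

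Reads of the subunit Ndufb4 may be shared with a pseudogene. Only pseudogenes whose symbol begins with Nduf were looked at. Of these, Ndufa11b, Ndufs6b and Ndufab1-ps had at most 24 counts in any library. The processed pseudogene Ndufb4c (chr15:73809507-73809896) was given 23.0, 21.2 and 20.8 CPM in the VA-free mice and 65.3 and 68.7 CPM in the control mice, more than Ndufb4 itself, which was at 12.9, 13.0 and 14.8 CPM against 37.2 and 48.1 CPM. How the reads were split between them is uncertain, since pseudo-alignment divides those that fit both. Added together they stood at 35.9, 34.2 and 35.6 CPM against 102 and 117 CPM, a log2 ratio of means of -1.64, close to the -1.65 of Ndufb4 alone. Ndufb4 and Ndufb4c were singled out after their values had been seen.

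The assembly factors fell less uniformly. Of 14, 10 were lower, where 22.5% of all genes tested were. Among the 14, 0 were called higher, and Ecsit, Timmdc1, Acad9 and Foxred1 were not called. The median log2 fold change of the 14 was -0.89 with a range from -1.48 to 0.07. Every VA-free mouse lay below every control mouse in 11 of 14, where 32.2% of all genes tested did so. Every VA-free library lay below every control library in 8 of 14. The share over all genes was not counted for libraries, so nothing is read from that count. The summed level was 258 to 274 CPM in the VA-free mice and 366 to 422 CPM in the control mice, a fraction of that of the subunits.

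Of the factors outside the mitochondrial complex I intermediate assembly (MCIA) complex, 8 of 9 were lower, where 22.5% of all genes tested were. Ndufaf8 (chr11:120098928-120100705), a partner of Ndufaf5, was at 12.9, 12.7 and 11.4 CPM against 30.8 and 38.0 CPM, with a log2 fold change of -1.48 ± 0.16 (adjusted p = 0.000653). Ndufaf5, which hydroxylates an arginine of Ndufs7, was at 5.16, 4.27 and 3.99 CPM against 11.3 and 8.26 CPM, with a log2 fold change of -1.12 ± 0.24 (adjusted p = 0.00903). Neither gene overlapped between the diets. Ndufaf3, which works with Ndufaf4 on the early Q module, was at 11.4, 14.1 and 10.2 CPM against 29.6 and 26.6 CPM, with a log2 fold change of -1.24 ± 0.18 (adjusted p = 0.00205). Ndufaf4 was at 16.6, 15.1 and 13.6 CPM against 24.0 and 22.3 CPM, with a log2 fold change of -0.62 ± 0.15 (adjusted p = 0.0178), a call lost without VA-free mouse 2 (-0.62), VA-free mouse 3 (-0.55) or library control 1A (-0.50). In this pair the fall of Ndufaf3 was the larger in size, and the difference was not tested. Ndufaf7, an arginine methyltransferase, was at 20, 20.6 and 17.6 CPM against 28.8 and 40.3 CPM, with a log2 fold change of -0.83 ± 0.18 (adjusted p = 0.00955). Ndufaf6, an early factor, was at 9.71, 6.94 and 8.48 CPM against 12.2 and 20.2 CPM, with a log2 fold change of -0.95 ± 0.26 (adjusted p = 0.0258). The 2 control mice of Ndufaf6 lay far apart, and its call was lost without VA-free mouse 2 (-0.83), VA-free mouse 3 (-0.96), control mouse 2 (-0.54), library control 1A (-0.73) or library control 2B (-1.33).

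Ndufaf2, a relative of Ndufa12 that holds its place before the N module is complete, was at 8.19, 7.77 and 9.19 CPM against 19.2 and 13.6 CPM, with a log2 fold change of -0.97 ± 0.21 (adjusted p = 0.00918). Nubpl, which delivers iron-sulfur clusters, was at 5.94, 5.79 and 6 CPM against 8.64 and 9.31 CPM, with a log2 fold change of -0.60 ± 0.19 (adjusted p = 0.0381). Its diets did not overlap, yet 16 of 27 alternatives lost the call, including those without VA-free mouse 1 (-0.60), 2 (-0.59) or 3 (-0.61), control mouse 2 (-0.55), or library control 1A (-0.58), 2A (-0.38) or 2B (-0.88). Foxred1, an oxidoreductase-like factor of the later steps, was at 26.7, 30.8 and 33.9 CPM against 23.1 and 35.0 CPM, with a log2 fold change of 0.07 ± 0.21 (adjusted p = 0.825), and its sign turned in 5 of 27 alternatives.

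The MCIA complex, which builds the membrane arm, held 3 of the 4 uncalled factors. Of its 5 genes 2 were lower, where 22.5% of all genes tested were, and nothing is read from that count. The median log2 fold change was -0.21, against -0.95 for the 9 factors outside it. Fold changes went with transcript length, as given below, and the median length was 1164 bases outside and 1570 bases inside the MCIA complex. Ndufaf1, its central factor, was at 12.8, 11.2 and 12 CPM against 16.8 and 33.8 CPM, with a log2 fold change of -1.08 ± 0.28 (adjusted p = 0.0214). Tmem126b, a membrane protein of the complex, was at 13.5, 15.4 and 16.1 CPM against 23.4 and 37.3 CPM, with a log2 fold change of -1.02 ± 0.22 (adjusted p = 0.00955). In both genes control mouse 2 was above control mouse 1 through library 2A. Ndufaf1 was at 53.2 CPM in 2A and 18.7 CPM in 2B, against 15.6 and 16.9 CPM in 1A and 1B, and Tmem126b at 60.4 CPM in 2A and 19.1 CPM in 2B, against 27.6 and 16.9 CPM. Without library control 2A the log2 fold change was -0.57 for Ndufaf1 and -0.50 for Tmem126b, both still called. The call of Ndufaf1 was lost without any VA-free mouse (-1.12, -1.03 and -1.08 without mice 1, 2 and 3), without control mouse 2 (-0.49) or without library control 2B (-1.57), and that of Tmem126b without library control 1A (-0.87). Ecsit, also a signalling adaptor, was at 37.7, 35.7 and 32.0 CPM against 44.0 and 37.6 CPM (log2 fold change -0.21 ± 0.14, adjusted p = 0.255). Acad9, related to acyl-CoA dehydrogenases, was at 64.3, 61.3 and 57.5 CPM against 63.1 and 70.0 CPM (log2 fold change -0.13 ± 0.11, adjusted p = 0.429). Timmdc1 was at 29.1, 28.9 and 26.1 CPM against 31.2 and 30.1 CPM (log2 fold change -0.13 ± 0.13, adjusted p = 0.459). These 3 genes differed between the diets by less than their error allows to be called. Whether the factors inside and outside MCIA differ was not tested.

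Ndufa4l2 (ENSMUSG00000040280, chr10:127514967-127517154), a gene induced in hypoxia and known as a marker of pericytes, fell most of all 51. It was at 0.600, 0.915 and 0.799 CPM in the VA-free mice and 24.9 and 14.4 CPM in the control mice, a log2 fold change of -4.68 ± 0.32 (adjusted p = 0.000246). Every control library, from 14.3 to 24.1 CPM, lay far above every VA-free library, from 0.529 to 1.03 CPM. Of the 6 pericyte and smooth muscle markers Rgs5 (log2 fold change -6.11), Myh11 (-3.51) and Kcnj8 (-3.36) were lower, Notch3 (2.78) was higher, and Acta2 (-0.36) and Cspg4 (0.40) were not called. The part of pericyte RNA in the level of Ndufa4l2 was not tested.

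The level of the subunits differed between the 2 libraries of control mouse 2. Library 2A was above 2B in 35 of 36 subunits, by a median of 0.91 on the log2 scale, against 0.17 between 1A and 1B and 0.10 between VA-free 3A and 3B. The subunits summed to 7560 CPM in library 2A and to 3680 CPM in library 2B, the highest and the lowest of the control libraries, and 2160 to 2300 CPM in the 4 VA-free libraries. Without library 2A the median log2 fold change was -1.13 for the subunits and -0.54 for the assembly factors, with 34 and 9 genes lower, and without library 2B it was -1.60 and -1.06, with 33 and 7 genes lower. The fall of the subunits was thus present against either library of that mouse, and its size moved with them.

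**Figure D2:**
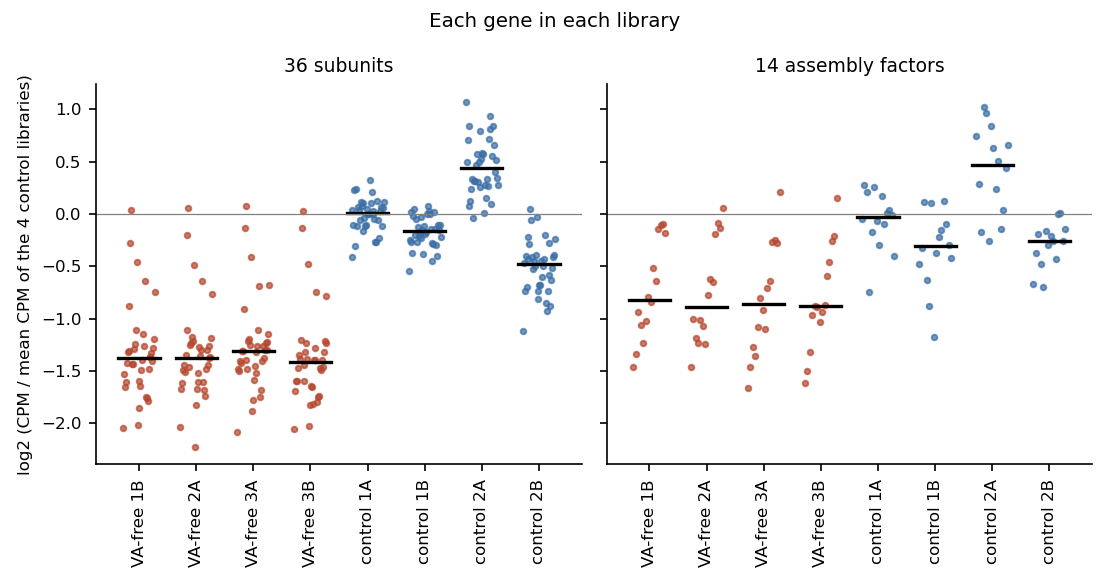
CPM of each subunit (left, 36 points per library) and each assembly factor (right, 14 points) on a log2 scale relative to the mean of the 4 control libraries (y axis), for 8 libraries (x axis), with the median as a bar. By the subunit medians, control 2A lies above and control 2B below the other control libraries, and all 4 VA-free libraries lie below control 2B.

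Subunits of complex I are encoded by short transcripts, and the fold changes of all genes went with transcript length. The Spearman correlation of log2 fold change with log2 length was 0.378 over 17997 genes tested, 0.662 over the 51 members, 0.486 over the 36 subunits and 0.648 over the 14 assembly factors. These are descriptions across genes, which are not independent replicates and here share libraries and normalization. In genes under 750 bases the median log2 fold change was -0.66, with 33.6% lower and 2.07% higher. In genes of 4000 bases and over the median was 0.60, with 8.69% lower and 41.5% higher. The median length was 698 bases for the subunits, 1422 bases for the assembly factors and 2122 bases for all genes tested.

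Against all genes tested in their length class, most subunits were still low. These classes hold genes of any type and were not matched for level. Of 22 subunits under 750 bases 22 were lower with a median of -1.39, and 11 lay below the lower quartile of the class. All genes of that class had a median of -0.66 with 33.6% lower. Of 9 between 750 and 1000 bases 9 were lower with a median of -1.29, where all genes had a median of -0.79 with 48.0% lower. Of 4 between 1000 and 1500 bases 3 were lower with a median of -0.83, where all genes had -0.48 with 39.1% lower. The only subunit above 1500 bases was Ndufs1 (2451 bases, 0.07), in a class with a median of -0.05. In all, 32 of 36 subunits lay below the median of their length class and 18 of 36 below its lower quartile, under which 25% of genes lie. For the assembly factors these counts were 12 and 6 of 14. Ndufv1, Ndufs1 and Ndufa10 were among those not below the median of their class. The shortest subunit transcript, that of Ndufc1 with 320 bases, lay 1.36 below the median of its class on the log2 scale. Ndufa13, with 1251 bases, lay 1.09 below its own.

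When the trend of each mouse with length was removed, 30 of 36 subunits were still called lower, with a median of -0.65, where 17.5% of all genes tested were lower. Those that lost the call included Ndufv3 (-0.25), Ndufb2 (-0.00) and Ndufa10 (0.09). Of the assembly factors 2 of 14 were called, Ndufaf8 (-0.80, adjusted p = 0.0136) and Tmem126b (-1.14, adjusted p = 0.01), with a median of -0.49. A count of 2 of 14 lies near the share over all genes, and nothing about the assembly factors is read from it.

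**Figure D3:**
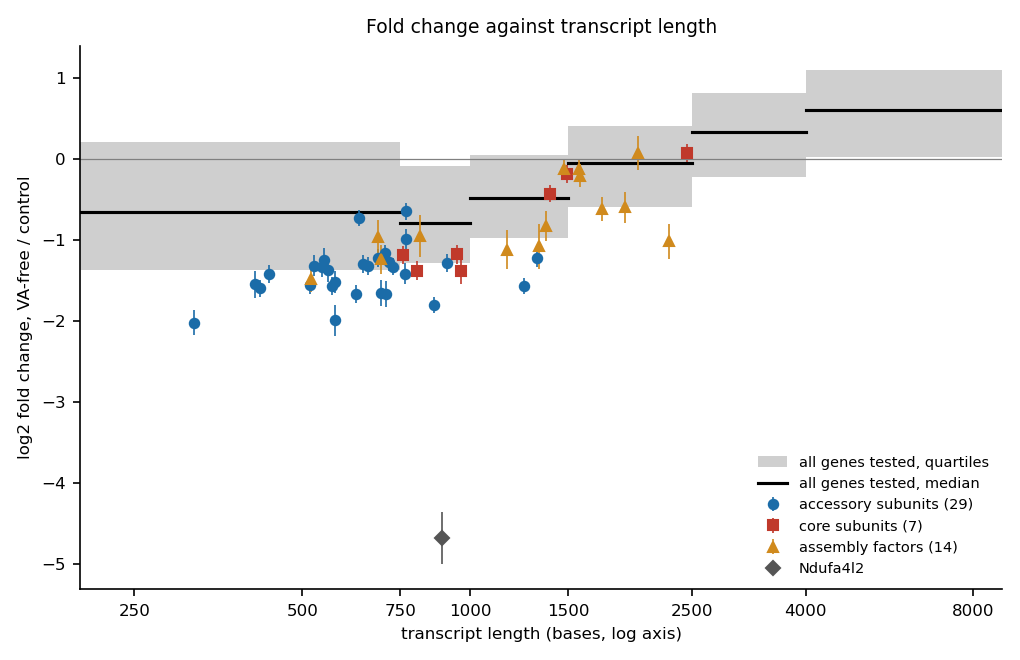
Log2 fold change (y axis, bars are standard errors) of 29 accessory subunits, 7 core subunits, 14 assembly factors and Ndufa4l2 against transcript length in bases (x axis, log scale). Grey boxes give the quartiles and black lines the medians of all genes tested in 6 length classes, and 32 of 36 subunits lie below the black line of their class.

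Within single genes, short and long protein-coding transcripts could be set side by side. The members were searched for protein-coding transcripts with at least 10% of the gene's protein-coding counts whose lengths differ at least 1.5-fold, a rule chosen after values had been seen, and 11 genes had such a pair. The estimates depend on how pseudo-alignment divides shared reads, and no test was made, since an exact permutation test of 3 against 2 mice gives no p below 0.1. The long form took a larger share of the pair in every VA-free mouse than in any control mouse in 4 of 11 genes, Ndufv3, Ndufab1, Ndufb2 and Ndufaf4. By the same rule it did so in 29.1% of 3303 genes tested that had such a pair, so 4 of 11 lies near the share over all genes. In the other 7 the shares overlapped.

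In Ndufb2 the long form of 4371 bases was at 23.5, 25.6 and 25.2 CPM in the VA-free mice and 17.9 and 20.9 CPM in the control mice, whereas the short form of 455 bases was at 24.6, 21 and 23.0 CPM against 58.5 and 52.1 CPM. The forms of this gene thus moved in opposite directions. In Ndufab1, the mitochondrial acyl carrier protein, the long form of 3479 bases was at 13.8, 14.4 and 13.4 CPM against 15.9 and 13.8 CPM, and the short form of 452 bases at 22.9, 20.8 and 21.3 CPM against 55.0 and 61.7 CPM. The long form overlapped between the diets and the short form did not.

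Ndufv3 (chr17:31520115-31531331) is known for 2 protein forms that differ by a long internal exon. The gene as a whole was at 62.4, 52.4 and 54.9 CPM against 113 and 112 CPM, with a log2 fold change of -0.99 ± 0.12 (adjusted p = 0.000931). The short transcript of 493 bases was at 22.8, 20.6 and 19.1 CPM against 60.0 and 54.8 CPM, and the long one of 1582 bases at 38.0, 29.9 and 33.5 CPM against 50.6 and 55.5 CPM. The long form made up 62.5%, 59.2% and 63.7% of the pair in the VA-free mice and 45.8% and 50.3% in the control mice. Both forms were lower on the VA-free diet, the short one in larger proportion. Ndufv2 did not share this pattern: its form of 1697 bases made up 17.3%, 19.0% and 18.6% of the pair in the VA-free mice and 18.7% and 18.2% in the control mice.

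**Figure D4:**
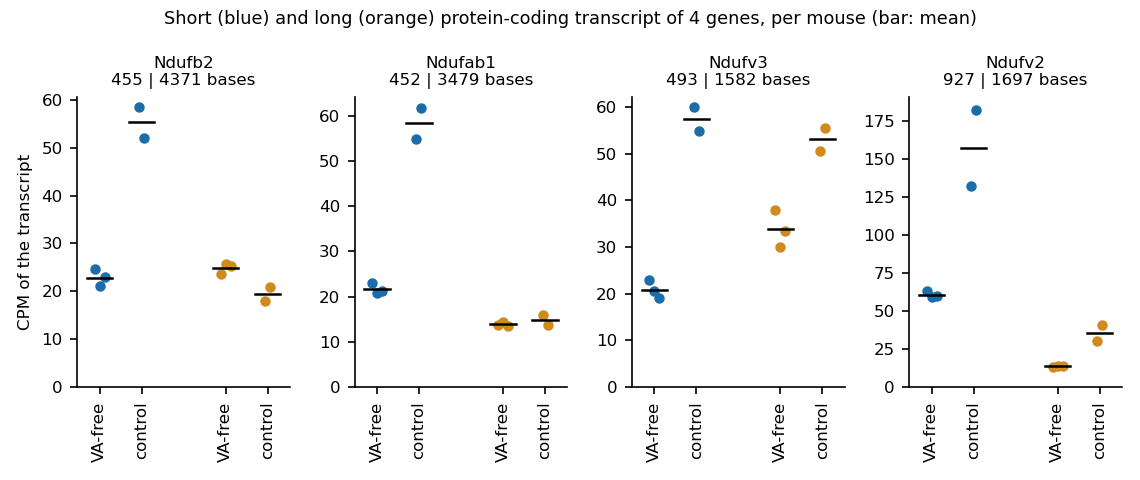
CPM (y axis) of a short (blue) and a long (orange) protein-coding transcript of Ndufb2, Ndufab1, Ndufv3 and Ndufv2 in each mouse, with bars at the mean of 3 VA-free and 2 control mice. The short form is lower on the VA-free diet in all 4 genes, the long form of Ndufb2 is higher, that of Ndufab1 overlaps, and those of Ndufv3 and Ndufv2 are lower.

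A part of the members' counts lay on transcripts annotated as retained intron, processed transcript or nonsense-mediated decay, 134 of the 258 transcripts of these genes. Their share was 11.9% to 12.9% in the VA-free libraries and 9.64% to 11.0% in the control libraries. With protein-coding transcripts alone, 33 of 36 subunits and 10 of 14 assembly factors were lower, and the call lost among subunits was that of Ndufs4 (-0.55).

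Most other genes of the respiratory chain were lower as well. All 7 mitochondrially encoded subunits of complex I were lower, with a median log2 fold change of -3.02 and a range from -3.24 to -2.23, and their sum was 1140 to 1520 CPM in the VA-free mice and 9090 to 10300 CPM in the control mice. Of these, mt-Nd1 was at 624, 465 and 587 CPM against 2970 and 3040 CPM, with a log2 fold change of -2.43 ± 0.15 (adjusted p = 0.000226). Their transcripts are 297 to 1824 bases long. A list of 46 nuclear genes held subunits of complexes II to V and some proteins that work with them, such as Cycs, Cox7a2l and Atpif1. Of the 46, 39 were lower and Atp5a1 was higher, with a median of -1.23, where 22.5% of all genes tested were lower. With the length trend removed, 28 of the 46 were lower and 1 was higher, with a median of -0.56. The complex I subunits had 30 of 36 lower and a median of -0.65 in that fit. Of 8 other genes for complex I assembly or import, Dmac1, Lyrm2 and Tmem70 were lower, none was higher, and the median was -0.31.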

How the data were processed

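RNA of sorted MuSCs of 5 mice was analysed in 8 libraries. Reads of 75 bp had been pseudo-aligned by the authors to Ensembl 96 transcripts of GRCm38 with kallisto 0.46.2, and the deposited values are estimated counts and TPM per transcript and library. The expected (estimated) counts deposited by the authors are not normalized between libraries, and the TPM values the authors deposited are scaled by effective length to a fixed total, so they keep no depth.

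Estimated counts were added per gene (116816 of 118489 transcripts matched the GENCODE M21 annotation of the same release, and 0.647% to 0.756% of counts without a gene were left out), added over technical replicates, and rounded. VA-free and control mice were fitted by edgeR 4.0.16 (R 4.3.3) with TMM factors and the default filter on low counts, and quasi-likelihood p-values were adjusted after Benjamini and Hochberg over 17997 genes at a threshold of 0.05. A standard error is the log2 fold change divided by the square root of F. Transcript length is the mean over a gene's transcripts weighted by TPM. Splits of 1 animal's RNA are not replicates, so the mouse was the sample. No pair of libraries agreed within counting noise. The fits were first run on simulated independent counts with few changed genes, a simpler case than these data. Alternatives were other normalizations and filters, DESeq2 1.42.0, limma-voom (limma 3.58.1), limma on log2(TPM + 1) and log2(TPM + 0.1), length and GC terms, protein-coding transcripts only, other uses of the technical replicates, a replicate block, and leaving out mice or libraries.

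The genes, module lists, motifs, and the rule for named genes were chosen with earlier results of these data known. By that rule the text names the nuclear core subunits, the lowest and highest subunit of each module, all assembly factors, Ndufa4l2, Ndufv3 and mt-Nd1. Other genes are named by count or were chosen after their values were seen. Start regions are from RefSeq (GRCm38.p6). Protein sequences are not given here. An item that the rule for named genes would include is not reported here, although it is counted in the totals.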

Additional observations from a re-analysis of the deposited data

Results flagged for a closer look

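In 4 of 56 sets of 4 libraries of a diet (28 named genes, each diet apart) the highest library stood apart from the other 3 by Dixon's criterion, which chance passes in about 1 in 20 sets. Control library 2A gave 3 of them. It was at 370 CPM for Ndufv2, where the other control libraries were at 127 to 167 CPM, at 53.2 CPM for Ndufaf1 (others 15.6 to 18.7 CPM) and at 54.5 CPM for Ndufaf7 (others 27.1 to 30.3 CPM). The fourth was VA-free library 3B for Nubpl, at 6.03 CPM against 5.77 to 5.81 CPM, a narrow range. The libraries of a mouse share an animal, so these sets hold fewer than 4 independent samples.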

How the results depend on the processing

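The call "lower" held in all 27 alternatives for 29 subunits, for Ndufaf8 and for Ndufa4l2. The number of subunits lower stayed between 30 and 34. The median of the subunits (-1.33) was -1.37 with upper quartile normalization, -1.28 with library size only, -1.37 with 8 libraries as separate samples, -1.56 with the first library of each mouse, -0.65 with the length trend removed, -0.92 and -0.92 with TPM and a pseudocount of 1 and 0.1, and -1.36, -1.36, -1.13 and -1.60 without library VA-free 3A, control 1B, control 2A and control 2B. Leaving out 1 mouse gave -1.37 to -1.32. The median of the assembly factors (-0.89) was -1.03 with the first library of each mouse, -0.49 with the length trend removed, -0.41 and -0.42 with TPM, -1.04 with protein-coding transcripts only, and -0.77, -0.54 and -1.06 without library control 1A, 2A and 2B. Leaving out 1 mouse gave -0.90 to -0.56. The number of assembly factors lower (10) was 2 with the length trend removed, 2 and 3 with TPM (pseudocount 1 and 0.1), 6 without library control 1A and 6 to 10 without 1 mouse. With TPM 3 and 3 members were called higher (0 otherwise). TPM moved the median of all genes tested by 0.19 and 0.35 (pseudocount 1 and 0.1). Over all genes, 4056 of 7459 calls were lower in CPM and 2637 of 8436 with TPM and a pseudocount of 1. The cause of these shifts was not tested, apart from the smaller set of libraries in those that leave some out.

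With the replicate number as a block, 33 subunits and 6 assembly factors were lower, with medians of -1.31 and -0.84. The deviations of same-numbered mice correlated at -0.0655 and 0.0103, and those of mice with crossed numbers at 0.0655 and -0.0103. The deviations of the control mice mirror each other, so these values cannot show whether same-numbered mice share more than a number.

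Signs turned for genes of small change. Ndufs1 (0.07) was -0.05 with the first library of each mouse, -0.11 with the length trend removed, -0.08 without library control 2B and -0.02 to 0.16 without 1 mouse. Foxred1 (0.07) was -0.15 with the first library of each mouse, -0.41 with protein-coding transcripts only, -0.22 without library control 2B and -0.20 to 0.40 without 1 mouse. With the length trend removed Ndufv1 was 0.08, Ndufa10 0.09, Timmdc1 0.08 and Acad9 0.15. With TPM and a pseudocount of 1 and 0.1, Ndufv1 was 0.29 and 0.29, Timmdc1 0.29 and 0.30, Acad9 0.27 and 0.27, Ecsit 0.24 and 0.25, and Nubpl 0.18 and 0.21. Acad9 was 0.29 with protein-coding transcripts only and 0.03 without library control 2A. With 2 control mice the spread of that diet rests on a single difference, so a p-value measures little more than these 5 animals. Counts were high for subunits (at least 647 in each library) and fell to 24 for Ndufa4l2, where counting error is larger.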
